A study of Mus musculus with 6 samples.

Results

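Of the 10 genes described here, 8 are noncoding hosts of small nucleolar RNAs (snoRNAs), namely GAS5, SNHG1, SNHG3, SNHG5, SNHG6, SNHG8, SNHG12 and ZFAS1, and the other two are nuclear long noncoding RNAs (lncRNAs), MALAT1 and NEAT1. They were chosen by symbol, and all 10 were found among the 46937 symbols of the deposited count table and among the 21201 genes that passed the filter on low counts. Symbols are given in capitals, as in that table. Total RNA had been read from biopsies of lung squamous cell carcinoma in mice. Both groups of tumours carried an active PI3K allele (PIK3CA H1047R), overexpressed SOX2 and had lost CDKN2A and CDKN2B. The control group, PSC, had nothing further and is labelled wild type for NSD3, a histone methyltransferase, while the PSCN group also expressed the NSD3 mutant T1242A. Each group held 3 libraries. The sources used here do not give the mice's age or what drives the alleles. Nothing in the labels ties each biopsy to a mouse of its own, so the p-values cover only how these samples spread, which may be technical.

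A snoRNA is a short nuclear RNA that guides chemical modification or processing of ribosomal RNA, and most mammalian snoRNAs are cut out of the introns of a host gene. In noncoding hosts the introns carry the product, and the spliced exons are mostly exported and degraded, GAS5 being a classic substrate of nonsense-mediated decay. Many hosts begin with a run of pyrimidines, as messengers of ribosomal proteins do, which ties their turnover to translation and growth. MALAT1 and NEAT1 are kept in the nucleus instead. MALAT1 sits in nuclear speckles, which store splicing factors, and NEAT1 is the scaffold of paraspeckles.

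The annotation (GENCODE M21, GRCm38) places 30 snoRNA genes inside the hosts, on the same strand: 9 in GAS5, 8 in SNHG1, 4 in SNHG12, 3 in ZFAS1, 2 each in SNHG3 and SNHG5 and 1 each in SNHG6 and SNHG8. MALAT1 and NEAT1 hold 0. The sequences below are the hosted snoRNAs with the most counts in GAS5, ZFAS1 and SNHG12, shown as examples of what these genes host. Capitals mark the letters TGATGA among the first 20 bases and CTGA among the last 15, the core of boxes C and D, or ACA near the end, the mark of the H/ACA class.
GM22357, in GAS5 (chr1:161036057-161036139, plus strand): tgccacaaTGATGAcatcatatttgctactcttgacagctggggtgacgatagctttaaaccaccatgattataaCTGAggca
SNORD12, in ZFAS1 (chr2:167065276-167065365, plus strand): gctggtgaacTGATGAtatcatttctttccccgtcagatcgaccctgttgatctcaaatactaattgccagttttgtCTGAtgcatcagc
SNORA61, in SNHG12 (chr4:132310240-132310369, plus strand): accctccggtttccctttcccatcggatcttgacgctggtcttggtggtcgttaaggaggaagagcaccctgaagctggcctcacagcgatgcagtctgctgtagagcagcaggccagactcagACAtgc
Of the 30 sequences, 19 held both TGATGA and CTGA in these windows. Another 5 held neither and had ACA within the last 8 bases: both snoRNAs of SNHG3, the one of SNHG8, and SNORA16A and SNORA61 of SNHG12.

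Start sites were read from RefSeq (GRCm38.p6), which had 9 windows for 8 of the 10 genes. The lines below run from 40 bases before the annotated first base to 20 bases from it on. Capitals mark runs of at least 5 C or T within 10 bases of that start. Runs were counted and marked only up to that distance, so that of SNHG1 goes on in lower case. They show host starts with and without such a run beside that of MALAT1. By this rule SNHG5 and ZFAS1 had none, but in SNHG5 a longer run that crosses the 10-base edge was cut below 5.
GAS5, second start (chr1:161035126-161035185, plus strand): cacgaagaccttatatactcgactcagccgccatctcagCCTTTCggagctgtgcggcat
SNHG1 (chr19:8723447-8723506, plus strand): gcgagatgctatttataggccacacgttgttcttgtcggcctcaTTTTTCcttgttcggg
SNHG8 (chr3:123508317-123508376, minus strand): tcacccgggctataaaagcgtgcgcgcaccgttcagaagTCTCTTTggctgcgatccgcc
SNHG12 (chr4:132308638-132308697, plus strand): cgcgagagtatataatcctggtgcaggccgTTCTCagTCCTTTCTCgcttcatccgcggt
SNHG5 (chr9:88522878-88522937, minus strand): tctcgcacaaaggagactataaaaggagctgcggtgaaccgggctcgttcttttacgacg
ZFAS1 (chr2:167062894-167062953, plus strand): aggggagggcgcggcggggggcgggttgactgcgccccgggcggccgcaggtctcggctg
MALAT1 (chr19:5802653-5802712, minus strand): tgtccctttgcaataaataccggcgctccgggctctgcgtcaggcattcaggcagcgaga
Such a run stood in 5 of the 9 windows, those of GAS5's second start, SNHG1, SNHG3, SNHG8 and SNHG12, against 34.4% of all 32851 windows in the table. A run counted this way need not begin at the annotated first base. From that base on, C or T ran unbroken for 5 bases at GAS5's second start and for 6 in SNHG8 and SNHG12. The length was 3 in SNHG1 and 0 in SNHG3. In the full windows of 300 bases, searched on both strands, TATAAA was found in 4 of 9 (SNHG1, SNHG3, SNHG5 and SNHG8), against 13.6% of all windows. TGACGTCA, the palindromic cAMP response element, was found in 1, at GAS5's second start, against 1.79% of all, and the E-box CACGTG in 0, against 7.15%. These matches describe letters and were not tested for binding.

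Total counts per library ran from 69563622 to 72807077, and these reads carry no molecular identifiers, so they cannot be taken as independent molecules. NSD3 lay between 79.7 and 101.7 CPM (counts relative to the library size after TMM scaling, edgeR's correction for composition) in PSC and between 820.7 and 1932 CPM in PSCN, so it follows the labels. PSC library 3 lay nearer to the other group: its mean correlation of log2 CPM over the genes tested was 0.941 with PSCN libraries and 0.908 with its own group, genes not being independent replicates. PSC libraries 2 and 3 came from female mice and the other 4 from male mice, by XIST and DDX3Y. Squamous markers (8 of 10 listed genes tested) were present in every library, but at very unlike levels. They summed to 284.4, 1686 and 5633 CPM in PSC, in library order, and to 7571 to 22350 CPM in PSCN. SPRR1B was the only one of 63 markers of 9 cell types listed at 0 in some library. Across all genes tested, edgeR's quasi-likelihood test called 1 gene higher and 0 lower at a Benjamini-Hochberg adjusted p under 0.05, and 2010 higher and 2579 lower at an unadjusted p under 0.05. DESeq2 called 1126 higher and 1834 lower.

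All 8 snoRNA hosts had higher means in PSCN, while MALAT1 and NEAT1 overlapped between the groups. On TMM-scaled CPM the lowest PSCN library exceeded the highest PSC library for all 8 hosts, but this count depended on the scaling. With RLE or upper quartile factors it held for 7, SNHG1 overlapping, and by library size alone for 6, SNHG1 and ZFAS1 overlapping through PSC library 3 and PSCN library 1. Whether groups overlap is given on TMM-scaled CPM from here on unless stated. The hosts' log2 fold changes of PSCN over PSC ran from 0.49 to 1.16, with a median of 0.66, where the median over all genes tested was -0.01. MALAT1 stood at -0.65 and NEAT1 at -0.08. None of the 10 passed the adjusted threshold in edgeR, where 0.00472% of genes were called higher and 0% lower. Of all genes tested, 15.2% had every PSCN value above the PSC values and 13.4% had every PSCN value below them. By library size alone these shares were 9.41% and 19.0%, the median over all genes was -0.17 and that of the hosts 0.51. At an unadjusted p under 0.05, 6 of the 8 hosts were higher, against 9.48% of all genes tested, and 0 were lower, against 12.2%. By DESeq2, 2 of the 10 passed, GAS5 and SNHG6, where 5.31% of genes were called higher and 8.65% lower. By limma-voom with sample quality weights 6 passed, all of them hosts, where 8.43% were called higher and 5.84% lower. Without PSC library 3 the hosts' median was 0.92 and 2 of the 10 passed in edgeR, SNHG6 and ZFAS1, where 3.39% of genes were called higher and 5.40% lower. Against PSC library 3 alone the median was 0.39. In biopsies, fewer cells of a type and less RNA per cell cannot be told apart.

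**Figure D1:**
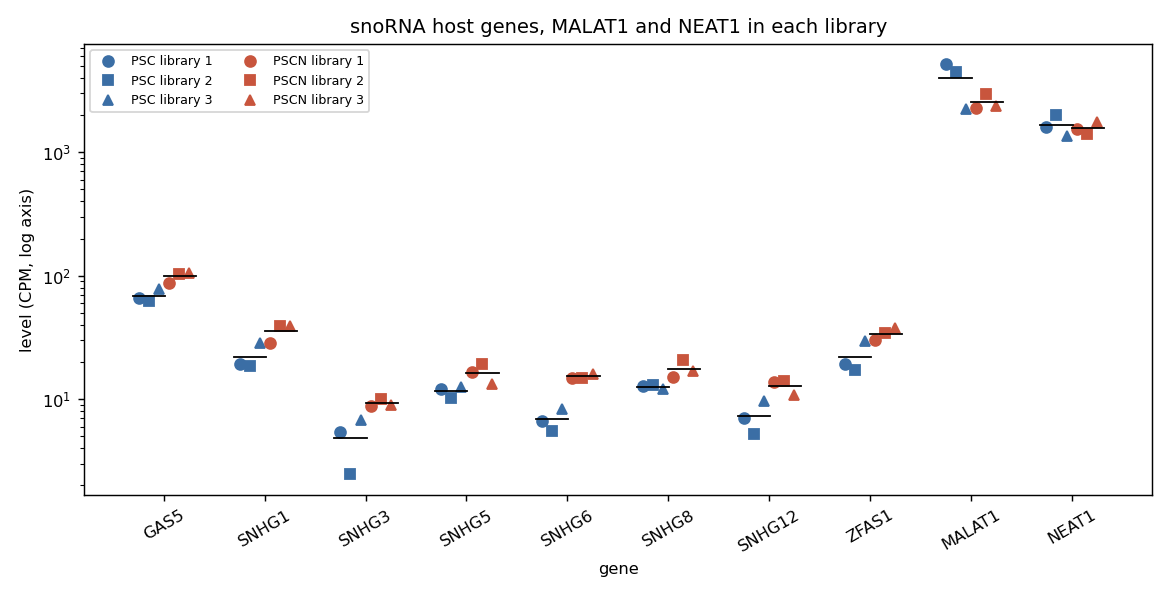
Level of each gene in CPM (log axis) in 3 PSC libraries (blue) and 3 PSCN libraries (red); marker shapes give the library number and black lines the group means. On this TMM-scaled axis every red point lies above every blue point for the 8 hosts, with SNHG1 at 28.6 against 28.3 CPM the closest; SNHG1 and ZFAS1 overlap by library size alone, and for MALAT1 and NEAT1 the colours overlap.

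GAS5, named for its build-up in growth-arrested cells, was the most abundant host. It lies on chromosome 1 from 161034422 to 161038539 (ENSMUSG00000053332.13, plus strand). In library order, the PSC counts were 4894, 4701 and 5738, and the PSCN counts were 6038, 6723 and 7533. In CPM these were 66.1, 62.04 and 78.2 in PSC and 88.1, 103.9 and 105.1 in PSCN. The PSCN libraries were all higher, and PSC library 3 was the highest of its group. The means were 68.8 ± 8.39 and 99.0 ± 9.51 CPM (SD, n = 3 each), a 1.44-fold difference (log2 fold change 0.53, SE 0.15, 95% interval 0.16 to 0.89). Its edgeR adjusted p was 0.191, against 0.0331 with DESeq2 and 0.0364 with limma-voom with sample quality weights. In the authors' deposited table, made with DESeq2, the adjusted p of GAS5 was 0.0617.

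SNHG6 had the largest log2 fold change of the 10 genes. Its host RNA (chromosome 1, 9941959 to 9944118, minus strand) surrounds SNORD87, a box C/D snoRNA. The counts were 493, 420 and 616 in PSC and 1023, 967 and 1156 in PSCN. As CPM, PSC stood at 6.65, 5.54 and 8.39 and PSCN at 14.9, 14.9 and 16.1. The lowest PSCN library was well clear of the highest PSC library, and the PSCN libraries were close to each other. The means were 6.86 ± 1.44 and 15.3 ± 0.692 CPM (SD, n = 3 each), a 2.23-fold difference (log2 fold change 1.16, SE 0.23, 95% interval 0.61 to 1.71). The edgeR adjusted p was 0.171, and 0.0403 without PSC library 3. DESeq2 gave an adjusted p of 1.47e-05, and over all alternatives the adjusted p ran up to 0.745. In the authors' deposited table SNHG6 was the only one of the 10 genes with an adjusted p under 0.05, at 8.3e-05, where 3.92% of genes with an adjusted p were called higher and 8.10% lower.

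SNHG1, the host of 8 snoRNAs (chromosome 19, 8723475 to 8726443), and ZFAS1, the host of 3 (chromosome 2, 167062934 to 167065862), had similar values. SNHG1 stood at 19.4, 18.5 and 28.3 CPM in PSC and at 28.6, 39.4 and 39.2 CPM in PSCN. Its PSC library 3 nearly reached PSCN library 1, and the groups overlapped under each of the other 3 scalings. The log2 fold change was 0.69 (SE 0.24, edgeR adjusted p = 0.197). ZFAS1, the antisense partner of ZNFX1, stood at 19.2, 17.2 and 29.7 CPM in PSC and at 30.4, 34.2 and 37.5 CPM in PSCN. Here too PSC library 3 came close to the lowest PSCN library, and it was above it by library size alone. Its log2 fold change was 0.63 (SE 0.25, edgeR adjusted p = 0.219). Without PSC library 3 it was 0.91 with an edgeR adjusted p of 0.0463, and against that library alone 0.18.

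SNHG12 and SNHG3 lie near each other on chromosome 4, on opposite strands, and both host H/ACA snoRNAs, the class that guides conversion of uridine to pseudouridine. SNHG12 (132308623 to 132311024) stood at 7.07, 5.20 and 9.60 CPM in PSC and at 13.7, 14.1 and 10.9 CPM in PSCN. The groups did not overlap, and PSC library 2 was the lowest. Its log2 fold change was 0.82 (SE 0.29, edgeR adjusted p = 0.201). SNHG3 (132348014 to 132353686) stood at 5.40, 2.46 and 6.80 CPM in PSC and at 8.74, 9.95 and 9.01 CPM in PSCN. PSC library 2 was far below the other 5 libraries, and the PSCN libraries were close to each other. The log2 fold change of SNHG3 was 0.92 (SE 0.40, 95% interval -0.06 to 1.90, edgeR adjusted p = 0.247), and 0.60 without PSC library 2. SNHG3 shares its strand and most of its span with RCC1, so the counts of the pair may not be separable.

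SNHG5 and SNHG8 had the smallest log2 fold changes among the hosts, and without PSCN library 2 they were 0.32 and 0.31. SNHG5, which carries SNORD50A and SNORD50B (chromosome 9, 88521050 to 88522929), stood at 12.03, 10.2 and 12.5 CPM in PSC and at 16.6, 19.2 and 13.3 CPM in PSCN. Only a small step separated PSC library 3 from PSCN library 3. Its log2 fold change was 0.49 (SE 0.21, 95% interval -0.02 to 1.01, edgeR adjusted p = 0.242). SNHG8, which carries SNORA24 (chromosome 3, 123507552 to 123508404), stood at 12.7, 13.0 and 12.2 CPM in PSC and at 15.2, 20.9 and 17.02 CPM in PSCN. It was the host in which PSC library 3 was the lowest of its group, and the one with the tightest PSC values. The log2 fold change was 0.49 (SE 0.19, 95% interval 0.03 to 0.95, edgeR adjusted p = 0.215).

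MALAT1 had the highest counts of the 10 genes in every library. It lies on chromosome 19 from 5795690 to 5802672 (minus strand). The PSC counts, in library order, were 381759, 341731 and 166040, and the PSCN counts 156138, 192472 and 169575. PSC libraries 1 and 2 stood at 5152 and 4510 CPM, and the other 4 lay between 2262 and 2974 CPM, PSC library 3 being the lowest of all 6. The groups therefore overlapped, and the higher PSC mean came from 2 libraries. Without PSC library 1 the log2 fold change was -0.42. The PSC mean was 3975 ± 1518 CPM and the PSCN mean 2539 ± 379.5 CPM (SD, n = 3 each), with a log2 fold change of -0.65 (SE 0.39, 95% interval -1.59 to 0.29, edgeR adjusted p = 0.355). Without PSC library 3 the log2 fold change was -0.92 with an edgeR adjusted p of 0.081. Against that library alone it was 0.15, in the other direction.

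NEAT1 (chromosome 19, 5824708 to 5845478, minus strand) differed less than its libraries varied. It stood at 1608, 2016 and 1349 CPM in PSC and at 1553, 1396 and 1754 CPM in PSCN. The lowest and the highest of the 6 libraries were both PSC. The log2 fold change was -0.08 (SE 0.25, 95% interval -0.69 to 0.53, edgeR adjusted p = 0.865), an interval that holds changes of either sign. Its sign turned without PSC library 2, where it was 0.09, and against PSC library 3 alone, where it was 0.20. One symbol covers the short and the long NEAT1 transcript, of which the long one builds paraspeckles, and the count does not separate them.

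**Figure D2:**
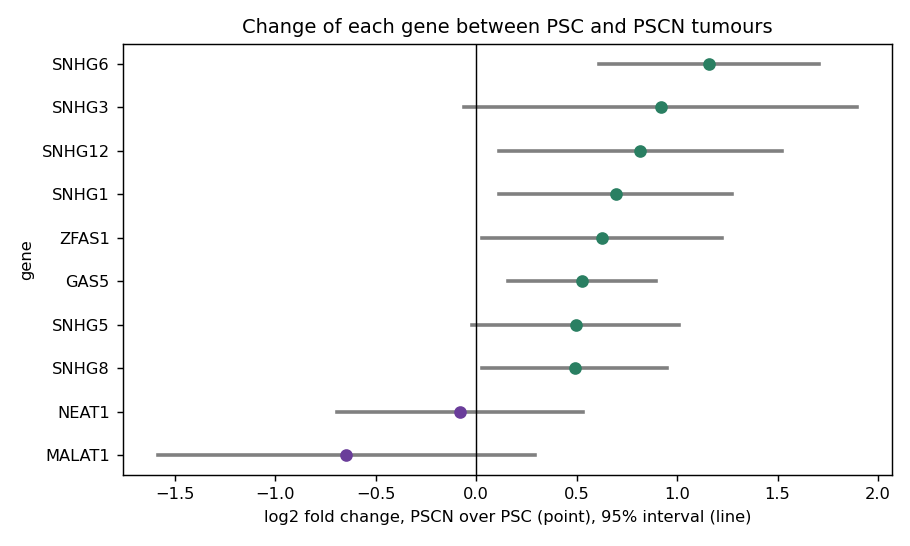
Log2 fold change of PSCN over PSC from edgeR for each gene (points; green for snoRNA hosts, purple for MALAT1 and NEAT1) with its 95% interval (lines). The hosts run from 0.49 to 1.16 and the intervals of SNHG3 and SNHG5 reach below 0, as do those of MALAT1 and NEAT1.

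Per kilobase of annotated exon, the level of MALAT1 was 569.2 CPM per kb in PSC and 363.6 in PSCN, and that of NEAT1 was 79.8 and 75.5. The ranges of the pair did not meet, and both genes lay above all hosts. GAS5 came next among PSC means at 18.3 CPM per kb (16.5 to 20.8), then SNHG8 at 14.8 (14.3 to 15.2). The remaining hosts lay between 3.04 for SNHG12 and 7.53 for ZFAS1, and the ranges of neighbours in that order overlapped in PSC. In PSCN, GAS5 stood at 26.3, SNHG8 at 20.8 and SNHG6 at 13.4 CPM per kb, with SNHG12 again the lowest at 5.35. The ranges of GAS5 and SNHG8 overlapped there. The exon lengths, 3760 bases for GAS5, include transcripts annotated with retained introns, so per-length levels of spliced hosts may be too low.

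Within a library, hosts can be set against MALAT1 and NEAT1 without any scaling between libraries. For every 10000 counts of MALAT1 and NEAT1 together, the 8 hosts had 219.6, 205.6 and 514.2 counts in PSC libraries 1 to 3. In PSCN libraries 1 to 3 they had 564.2, 587.0 and 602.1. PSC library 3 lay near the PSCN libraries and far from the other 2 of its group. As a mean of log2 values, hosts minus the nuclear pair was -7.54 ± 0.726 in PSC and -6.48 ± 0.072 in PSCN (SD, n = 3 each), a difference of 1.06. No test was made of this score, since its genes were chosen with results known. The difference was 1.47 without PSC library 3 and 0.25 against it alone. Set against MALAT1 alone it was 1.31, and against NEAT1 alone 0.81.

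The 2 nuclear RNAs did not keep a fixed ratio either. In library order, MALAT1 had 3.20, 2.24 and 1.68 counts per NEAT1 count in PSC and 1.47, 2.13 and 1.35 in PSCN. The groups overlapped through PSC library 3 and PSCN library 2. Together the pair took 0.72, 0.709 and 0.367% of all counts in PSC and 0.361 to 0.406% in PSCN. The hosts took 0.0158, 0.0146 and 0.0189% in PSC and 0.0204 to 0.0245% in PSCN.

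**Figure D3:**
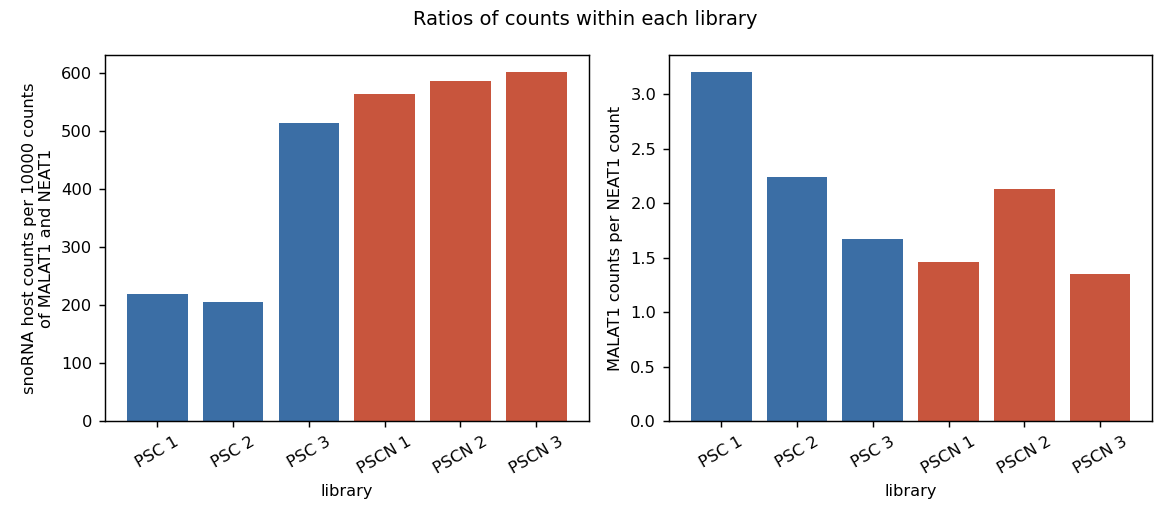
Left, counts of the 8 snoRNA hosts per 10000 counts of MALAT1 and NEAT1; right, MALAT1 counts per NEAT1 count, 1 bar per library, PSC in blue and PSCN in red. On the left PSC libraries 1 and 2 stand at 219.6 and 205.6 and the other 4 libraries between 514.2 and 602.1.

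The levels of markers of other cells also differed between libraries, with 0 markers past the adjusted threshold in edgeR. All 10 ciliated cell markers tested had negative log2 fold changes, and their summed level was 1423, 801.3 and 386.1 CPM in PSC, against 398.3 to 465.3 CPM in PSCN. Like MALAT1, this sum was high in PSC libraries 1 and 2. It includes TUBB4B, which reached 527.4 CPM by library size alone and had a log2 fold change of -0.05. The ciliated cell marker FOXJ1 by itself stood at 250.2, 119 and 13.4 CPM in PSC and at 6.15 to 24.4 CPM in PSCN. The 6 club cell markers tested summed to 27350, 18320 and 3744 CPM in PSC and 571.1 to 1956 CPM in PSCN, and the 7 alveolar type 2 markers to 6947, 12500 and 1517 CPM and 2172 to 2882 CPM. B cell markers summed to 259.3 to 323.8 CPM in PSC and 30.9 to 106.4 CPM in PSCN, and T cell markers to 46.0 to 139.5 and 23.5 to 73.1 CPM. Endothelial markers summed to 1603, 908.9 and 281.4 CPM in PSC, in library order, and to 393.1 to 667 CPM in PSCN. Myeloid markers summed to 136.8 to 771.2 CPM in PSC and 612.3 to 1589 CPM in PSCN. Fibroblast markers stood at 41470 CPM in PSCN library 1 and at 1125 to 3975 CPM in the other 5 libraries. AY036118 and CT010467.1 are not cell markers and were taken here as symbols like ribosomal RNA. Together they made up 4.12, 4.02 and 2.71% of counts in PSC, in library order, and 1.05 to 2.52% in PSCN. Within PSC, library 3 was lowest for MALAT1 and for the ciliated, club, alveolar type 2 and endothelial sums. It was highest for the B cell, T cell, myeloid and fibroblast sums. The part of these cells in the differences of the hosts and MALAT1 was not tested.

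Most snoRNAs inside the hosts had few counts. Of the 30, 14 were listed at exactly 1 count in all 6 libraries, and 5 had at least 10 counts in each library. Why the same value of 1 recurs was not tested, and it need not be a measured count. All snoRNA symbols of the table took 0.0071 to 0.0074% of counts in PSC and 0.0072 to 0.0086% in PSCN. GM22357, the GAS5 snoRNA printed above, had 156, 117 and 192 counts in PSC and 185, 258 and 185 in PSCN (log2 fold change 0.56, SE 0.35, edgeR adjusted p = 0.368). These groups overlapped. SNORD12, in ZFAS1, had 57, 55 and 72 counts in PSC and 81, 97 and 79 in PSCN, with no overlap (log2 fold change 0.61, SE 0.31, edgeR adjusted p = 0.302). SNORA61, in SNHG12, had 35, 27 and 44 against 98, 67 and 39 counts, with PSCN library 3 inside the PSC range. A snoRNA lies within its host's span, so a count may come from unspliced host RNA as well as from the snoRNA itself.

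Other snoRNAs that passed the filter showed mixed values. In GAS5, SNORD80 had 34 to 41 counts in PSC and 36 to 85 in PSCN, and GM25789 had 1, 36 and 84 counts in PSC against 63 to 75 in PSCN. In SNHG1, GM25894 had 22 to 28 counts in PSC and 1 to 32 in PSCN, and GM24452 25 to 41 and 6 to 42. SNORD87, in SNHG6, had 6 to 15 and 9 to 19 counts, so it overlapped where its host did not. SNORA24, in SNHG8, had 26 to 63 and 31 to 69 counts. The SNHG3 pair takes part in the cutting of ribosomal RNA precursors. SNORA73B had 0 counts in each PSC library and 42, 28 and 11 in PSCN, and it passed the filter on low counts only through PSCN, so no fold or test is given. SNORA73A had 3, 3 and 23 counts in PSC and 47, 8 and 126 in PSCN, with overlap. The pair share 198 of 205 bases, so reads may be split between them.

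Genes that overlap a host or lie within 1 kb of it did not all follow it. ZBTB37, a zinc finger gene that starts inside GAS5 on the other strand, stood at 38.6, 42.9 and 25.6 CPM in PSC and at 16.3, 16.9 and 18.04 CPM in PSCN. It was lower in each PSCN library while GAS5 was higher (log2 fold change -1.06, SE 0.22, edgeR adjusted p = 0.176). SLC3A2, an amino acid transporter subunit that runs away from SNHG1, overlapped between groups with a log2 fold change of -0.28 (SE 0.24). ZNFX1, opposite ZFAS1, had -0.13 (SE 0.46), with PSC values of 112.6, 133.0 and 257.3 CPM. TRNAU1AP, next to SNHG12, had 0.04 (SE 0.19), and PRSS12, next to SNHG8, 0.36 (SE 0.66). MCMDC2, at the end of SNHG6, had 3 to 11 counts and was not tested.

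RCC1, the nuclear exchange factor for RAN, followed SNHG3, with which it shares reads or strand. It stood at 20.4, 19.2 and 34.4 CPM in PSC and at 42.4, 59.8 and 47.8 CPM in PSCN, with no overlap (log2 fold change 1.02, SE 0.28, edgeR adjusted p = 0.189). GM17300, on the other strand of the same stretch, had 1.30 (SE 0.34), also with no overlap. The sources used here do not say whether counting used strand, so the SNHG3, RCC1 and GM17300 counts may hold the same reads. GM27494, at the start of ZFAS1, had 22 to 34 counts. Around MALAT1 and NEAT1, GM27505, a small RNA feature inside NEAT1, stood at 51.4 to 71.9 CPM in PSC and 52.2 to 68.8 CPM in PSCN. FRMD8OS had at most 17 counts, and the remaining 5 features had at most 2.

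Among other noncoding genes listed as snoRNA hosts, 14 of 18 symbols were in the table and all 14 were tested. A search of the annotation by symbol, limited to coding and lncRNA gene types, found a snoRNA inside 11 of them. It found none for SNHG4, RPS15A-PS6 and GM12191, which does not show that they hold none, since a gene of another type or name would be missed. Log2 fold changes were positive in 9 and negative in 5, with a median of 0.42. Every PSCN value exceeded the PSC values in 7 and fell short of them in 0, and 0 passed the adjusted threshold in edgeR, 6 being higher at an unadjusted p under 0.05. Over all genes tested these shares were 15.2%, 13.4% and 9.48%. The smallest p was that of a RIKEN cDNA gene with 2 annotated snoRNAs, whose mean was 14.8 ± 2.72 CPM in PSC against 33.2 ± 0.222 CPM for PSCN (SD, n = 3 each; edgeR adjusted p = 0.138). For another RIKEN cDNA gene, with 3, the log2 fold change was 0.76 (SE 0.24), and for RPS15A-PS6 it was 0.83 (SE 0.31). The sparsely counted SNHG9 had 12, 5 and 6 counts in PSC and 13, 27 and 31 in PSCN. PSC libraries 2 and 3 lay below the filter's minimum count of 10. It therefore passed the filter through PSCN, where it is higher, and no fold is given. SNHG9 is still counted among the 9 positive genes, the 7 separated and the 6 at an unadjusted p under 0.05.

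The negative ones, named after their values were seen, were SNHG11 at -1.68 (SE 0.87), SNHG14 at -0.97 (SE 0.57), SNHG20 at -0.40 (SE 0.21), GM12191 at -0.40 (SE 0.42) and SNHG18 at -0.31 (SE 0.77). All 5 overlapped between groups. SNHG14, the long imprinted transcript that runs across UBE3A, had 478, 476 and 280 counts in PSC and 146, 80 and 364 in PSCN. DANCR, also named after its values were seen, had 6 to 16 counts in PSC and 29, 7 and 237 in PSCN, so its log2 fold change of 3.29 (SE 1.30) came mostly from PSCN library 3.

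Protein-coding hosts and the proteins that bind snoRNAs had values on the same side as the noncoding hosts. Of 23 coding hosts tested, 22 were positive (median log2 fold change 0.70), against 49.1% of all genes tested, and in 17 every PSCN value exceeded the PSC values. In edgeR, 0 passed the adjusted threshold and 15 were higher at an unadjusted p under 0.05, where 15.2% of all genes were so separated and 9.48% so called. RPL3, a ribosomal protein, stood at 300.8, 336.7 and 434.9 CPM in PSC and at 614.4, 725.6 and 688.8 CPM in PSCN. The elongation factor subunit EEF1B2 had a log2 fold change of 0.76 (SE 0.19). RPS2 had 4.91 (SE 0.65), and its reads may be split with pseudogenes.

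The snoRNP list, the core and assembly proteins of snoRNA particles, was positive in 17 of 17 (median 0.42), with 0 past the adjusted threshold and 5 higher at an unadjusted p under 0.05, against 9.48% of all genes. NHP2, of the H/ACA particle, had a log2 fold change of 0.97 (SE 0.24). NOP56, a box C/D core protein that is itself a snoRNA host, had 0.87 (SE 0.22). The methyltransferase FBL, which carries out box C/D-guided methylation, had 0.64 (SE 0.21), and the nucleolar assembly factor NOLC1 0.66 (SE 0.20). For NOP56, PSC library 3 at 52.0 CPM again lay between the other PSC libraries, at 34.7 and 32.9, and PSCN at 67.8 to 81.7. Over all annotated coding genes with a snoRNA inside, 162 of 245 tested were positive with a median of 0.23. Over annotated lncRNA hosts that are not among the 10 genes, 16 of 29 were positive with a median of 0.24, so the wider sets stood lower than the lists of known hosts.

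Factors of nonsense-mediated decay, which degrades spliced GAS5, had a median of 0.06 (9 of 14 positive). UPF3B had a log2 fold change of -0.43 (SE 0.15), SMG8 0.67 (SE 0.27) and the exon junction helicase EIF4A3 0.37 (SE 0.15). Paraspeckle proteins, the partners of NEAT1, had a median of 0.07 (12 of 17 positive), with the RNA-binding proteins DAZAP1 at 0.37 (SE 0.14) and NONO at 0.31 (SE 0.16), HNRNPK at 0.30 (SE 0.17) and FAM98A at 0.32 (SE 0.15). Proteins of nuclear speckles, where MALAT1 resides, had a median of -0.07 (6 of 16 positive). The speckle core protein SON had a mean of 592.9 ± 53.2 CPM in PSC against 459.8 ± 24.1 CPM in PSCN (SD, n = 3 each), with no overlap. Its log2 fold change was -0.37 (SE 0.17), and those of the kinase CLK4, LUC7L3 and PNISR were -0.30, -0.26 and -0.51. In edgeR, 0 members of these 3 lists passed the adjusted threshold, and 3 in all were past an unadjusted p of 0.05, with UPF3B lower and DAZAP1 higher among them, where 9.48% of all genes were higher and 12.2% lower.

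Other nuclear or abundant noncoding RNAs were of both signs, with 8 of 17 positive and a median of -0.25. None passed the adjusted threshold in edgeR, and 2 were higher and 3 lower at an unadjusted p under 0.05, against 9.48% and 12.2% of all genes. MEG3 and RIAN, from one imprinted cluster, had log2 fold changes of -2.32 (SE 0.58) and -2.25 (SE 0.59). KCNQ1OT1, a long imprinted transcript that silences its neighbours, had -0.43 (SE 0.17) and did not overlap between groups. MIR17HG, the host of a microRNA cluster, had 1.004 (SE 0.32), also without overlap. MALAT1 at -0.65 and NEAT1 at -0.08 lay within the spread of this list, from -2.32 to 1.14.

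**Figure D4:**
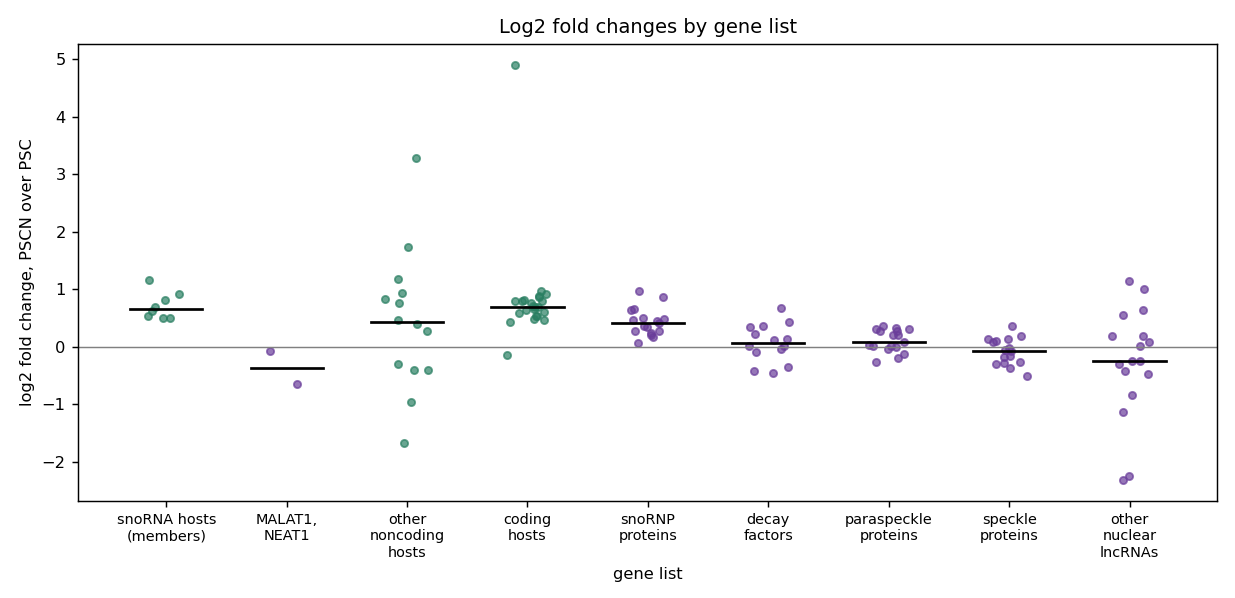
Log2 fold changes of PSCN over PSC from edgeR, 1 point per gene tested, for the 10 genes and for 7 lists, with black lines at the medians and a sideways spread that has no meaning. The hosts lie at a median of 0.66 and the coding hosts at 0.70, while decay factors, paraspeckle proteins and speckle proteins lie at 0.06, 0.07 and -0.07.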

How the data were processed

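Libraries came from a stranded kit for total RNA and were read in pairs at 76 nt, per the labels' protocols. Trimmomatic, HISAT2, StringTie and DESeq2 are named, with no version, in the submitters' processing notes, as is the genome GRCm38. The authors deposited estimated counts per symbol, already whole numbers, and, per the file headers, DESeq2's mean normalized signal, log2 fold changes, a Wald score and p-values. Columns were matched to the labels by group letter and number.

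Counts were filtered with filterByExpr, scaled with TMM factors and tested with edgeR 4.0.16 in R 4.3.3 by quasi-likelihood over all 21201 genes, with a threshold of 0.05 on Benjamini-Hochberg adjusted p-values. Residual degrees of freedom were 4. SE is the log2 fold change's size divided by the square root of F, and 95% intervals use the test's degrees of freedom. An exact permutation test of 3 against 3 cannot go below 0.1. The 10 genes and all lists were chosen with earlier results of these data known, so lists are described by counts and medians without a test. Besides the 10 genes, up to 4 genes per list with the smallest p, the filtered snoRNAs inside hosts and genes within 1 kb were named; 1 gene of these lists is not reported here. Alternatives were RLE and upper quartile factors, DESeq2 1.42.0, limma-voom 3.58.1 with quality weights, 2 other filters, libraries left out, a replicate block, PSC library 3 alone against PSCN, the mouse's sex as a covariate and, chosen after seeing the data, male libraries only and library size without scaling factors. Intervals cover the spread between libraries.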

Additional observations from a re-analysis of the deposited data

How the results depend on the processing

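The hosts' log2 fold changes were positive in all 17 alternatives for each of the 8 hosts, and MALAT1's was negative in all but one. These alternatives share libraries. Those with sex as a covariate and with male libraries only both rest on PSC library 1 as the only male PSC library. DESeq2 called 1126 genes higher and 1834 lower and 2 of the 10 genes, GAS5 at 0.53 and SNHG6 at 1.16, where 5.31% of all genes were called higher. Limma-voom with quality weights called 1788 and 1238 and 6 of the 10, where 8.43% were called higher. These were GAS5 at 0.65, SNHG1 at 0.91, SNHG3 at 1.54, SNHG6 at 1.38, SNHG12 at 1.08 and ZFAS1 at 0.91, and the hosts' median was 0.91. Leaving out each library in turn, genes called ran from 0 to 751 higher and from 0 to 1195 lower, and called genes among the 10 from 0 to 2. The highest counts came without PSC library 3, where SNHG6 and ZFAS1 passed. The hosts' median then ran from 0.55 to 0.92, SNHG6 from 1.03 to 1.34, ZFAS1 from 0.48 to 0.91 and NEAT1 from -0.20 to 0.09, its sign turning at 0.086 without PSC library 2. Against PSC library 3 alone, a fit in which that lone library is assumed to vary like PSCN, 0 genes were called higher. The hosts' median was then 0.39, the hosts' difference from the nuclear pair 0.25, MALAT1 0.15 and NEAT1 0.20. Keeping genes at 1 CPM or more in 3 or more libraries gave 3 genes called higher. Calls fell to 0 higher with the replicate block. The cause was not tested.

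The labels do not say whether the replicate numbers pair libraries. Deviations from the group means correlated at 0.19, -0.05 and 0.02 for numbers 1, 2 and 3. PSC library 1 correlated best with its own number, and PSC libraries 2 and 3 with another. With 3 libraries per group these values can neither show nor exclude a pairing. With the replicate block, 0 of the 10 genes passed and the hosts' median was 0.68. With sex as a covariate the median was 0.80 and MALAT1 stood at -1.02. All PSCN libraries were male, so this fit in effect set PSC library 1 alone against PSCN. The host difference from MALAT1 and NEAT1 does not depend on library scaling by construction. By library size alone the hosts' median was 0.51 and that of all genes -0.17, and 6 of the 8 hosts separated the groups. Counts limit what can be said of the snoRNAs inside hosts, of which 5 of 30 had at least 10 counts in each library.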
